A study of Mus musculus with 24 samples.

Results

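Macrophage and monocyte genes were followed in right ventricular RNA of 24 mouse samples, each read on 1 single-colour Agilent array. The set holds 34 genes chosen by name, from genes of the whole lineage to markers of resident and of recruited macrophages. Of these, 33 had a probe of that name (41 probes; Adgre1 under its older symbol Emr1). Probes were kept if, in at least 1 group, each array had them flagged as well above background by the scanner software. This left 31 probes and 25 genes, of 12425 genes tested in the whole data set. The PSPI operation overloads this ventricle in both volume and pressure. There were 5 samples taken 1 month after PSPI, 5 taken at 2 months and 4 taken at 3 months, and 10 from sham-operated mice. All samples carry 1 strain label, M/FVB/10-12, and no transgene or drug is named. The shams carry no month in their titles and served together as the comparison for every month. The labels do not state that each sample is a different animal; a p-value here reflects the spread among samples, part of which may be technical. Levels are log2 signals relative to each array's 75th percentile, and are compared only between arrays for 1 probe. Whole tissue was measured, so fewer cells of a type and less RNA per cell cannot be told apart.

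The mouse heart holds macrophages that settled before birth and renew themselves locally, and others that derive from blood monocytes. The first kind is commonly marked by Lyve1, Folr2 and Timd4. Monocytes enter the tissue through chemokine receptors such as Ccr2 and carry surface molecules such as Cd14 and the integrin Itgam. Both kinds depend on the growth factor receptor Csf1r and share genes of phagocytosis, Fc receptor signalling and the oxidative burst.

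Several features of the arrays run beside the results. The arrays lay on 3 slides, of which slide 2 held no sham, slide 1 held 7 shams and 1 month 1 array, and slide 3 held arrays of all 4 groups (3 of month 3, 1 each of months 1 and 2, 3 shams). In 6 of 276 pairs, arrays of 1 group lay closer together than 0.5, the root mean square log2 distance over 100 variable bright genes, and 4 of these pairs were on different slides. They were month 2 samples 1 and 5, month 3 samples 2 and 3, Sham 3 with 4, Sham 4 with 10, Sham 1 with 5, and Sham 7 with 9. Averaging arrays linked by such pairs (Sham 3, 4 and 10 as 1 sample, although Sham 3 and 10 lay at 0.548) left 18 samples (5, 4 and 3 PSPI samples of months 1 to 3, and 6 shams). The atrial myosin light chain Myl7 ranged from -7.27 to 2.19 in PSPI arrays and from -7.89 to 3.53 in shams, and was highest, at 3.48 to 3.53, in Sham 3, 4 and 10. Myh7, the slow myosin heavy chain induced by overload in mice, lay at 4.67 to 5.91 on 15 arrays (all of months 2 and 3, month 1 samples 1 and 5, Sham 6 to 9) and at 1.62 to 2.52 on the other 9. Markers of other cell types and these levels are given beside the results they accompany. The part they have in those results was not tested unless a value is given.

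Detection set what the comparison of macrophage kinds can rest on. The scavenger receptor Cd163 was well above background on 0 of 24 arrays. Timd4, a receptor for dying cells on resident macrophages, was above it on 6 of 14 PSPI arrays and 4 of 10 shams. Ccr2 reached it on 8 PSPI arrays and 4 shams, and Gpnmb, a glycoprotein of lipid-laden macrophages, on 4 PSPI arrays and 1 sham. Cd68, a lysosomal macrophage protein, reached it on 5 PSPI arrays and 1 sham, and Cybb (7 and 3), Fcgr1 (8 and 7) and Cd53 (6 and 5) were likewise not kept. The unkept Cd68 probe read -7.91 to -5.72, -7.12 to -5.81 and -7.53 to -6.99 in months 1 to 3, against -8.98 to -6.45 in sham, and that of Gpnmb -8.21 to -5.75, -7.92 to -5.06 and -7.48 to -6.27, against -9.05 to -5.00. Spi1, the lineage's master transcription factor, has no probe of that name, and the 1 probe under its older symbol Sfpi1 was above background on 1 array. Of the 25 genes tested, 23 were well above background on all 24 arrays. The exceptions were Ncf1 (14 of 14 PSPI arrays and 8 of 10 shams) and Marco (2 of 5, 4 of 5 and 4 of 4 in months 1 to 3, and 3 of 10 shams). These 2 were kept only through groups in which they are high, Ncf1 through PSPI groups and Marco through month 3, so their calls are not independent of the filter. Resident markers are thus represented by Lyve1, Folr2, Mrc1 and Mertk, and recruited markers by Cd14, Lgals3 and Itgam.

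With the 3 months weighted equally, 13 of the 25 genes were higher in PSPI than in sham ventricles (limma, Benjamini-Hochberg adjusted p under 0.05) and 0 were lower. Over all genes tested, 10.8% were higher and 13.6% lower, and 24.4% passed in either direction. The median log2 change of the 25 genes was 0.40, against -0.01 for all genes. The 13 were 4 leukocyte surface genes, the oxidase subunit Ncf1, 4 lineage genes, the adaptor Fcer1g and the recruited markers Cd14, Lgals3 and Itgam, while 0 of 4 resident markers passed. The call of Itgam came from a probe with CA repeats and was lost without such probes. Among the 23 genes well above background on all arrays, which leave out Ncf1 and Marco, 12 passed when only such probes were tested. With slide as a fixed block 7 genes passed, and with close arrays averaged 6 did (Ncf1, Cd52, Itgb2, Lyz1, Lgals3 and Mpeg1). The share of all genes passing is not given for these settings.

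Of 5 listed genes of the leukocyte surface 4 were tested, and these 4 were higher, by 0.40 to 0.81 on the log2 scale. The unkept Cd53 probe read -6.04 to -5.51, -6.40 to -5.06 and -7.37 to -5.91 in months 1 to 3, against -7.16 to -5.76 in sham. Cd52, a small glycoprotein of lymphocytes, monocytes and macrophages, had levels of -2.41, -2.12, -2.54, -2.71 and -2.30 in month 1, -2.03, -3.04, -2.53, -2.53 and -1.91 in month 2 and -2.13, -2.41, -2.34 and -2.18 in month 3, against a lowest of -3.65, a median of -3.19 and a highest of -2.61 in sham. All PSPI arrays but month 1 sample 4 and month 2 sample 2 lay above every sham. The change was 1.71-fold (log2 0.77 ± 0.13 SE, adjusted p = 0.000292).

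Itgb2, the beta chain shared by the leukocyte integrins, stood at -4.06, -3.85, -3.28, -4.19 and -3.98 in month 1, -3.66, -4.65, -2.47, -4.21 and -3.47 in month 2 and -4.23, -3.73, -4.08 and -3.70 in month 3. In sham its lowest, median and highest levels were -5.30, -4.52 and -4.34. Of 14 PSPI arrays 13 exceeded every sham, the exception being month 2 sample 2, and the change was 1.75-fold (log2 0.81 ± 0.18, adjusted p = 0.00355).

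Ptprc, the phosphatase CD45 found on all leukocytes, averaged -4.11 ± 0.22 in month 1, -4.11 ± 0.39 in month 2 and -4.34 ± 0.20 in month 3, against -4.65 ± 0.20 in sham (SD). Its change was 0.47 ± 0.10 (adjusted p = 0.00333), and 7 of 14 PSPI arrays lay above every sham; Sham 8, at -4.13, stood well above the other 9 shams. Laptm5, a lysosomal protein of blood cells, changed by 0.40 ± 0.14 (adjusted p = 0.0406), with 6 of 14 arrays above every sham. Its call was lost when 1 array was left out in 15 of 24 cases, with an adjusted p of up to 0.0767.

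None of these 4 genes belongs to macrophages alone. Of the neutrophil list 3 of 8 genes were tested and 3 were higher, among them S100a8 (log2 2.53 ± 0.33) and S100a9 (2.48 ± 0.50), which monocytes also express. S100a8 was dim in sham, at -7.92 to -5.47, against -5.09 to -3.13, -3.81 to -2.71 and -5.04 to -2.84 in months 1 to 3. Background flags of the neutrophil genes are not given here, so their calls may not be independent of the filter on dim probes. The mean centred level of these 3 genes ran from -0.33 to 1.25 in month 1, 0.61 to 1.45 in month 2 and 0.20 to 1.80 in month 3, against -2.55 to -0.37 in sham. In the T and NK cell list 0 of 3 tested genes passed, and the 1 tested B cell gene, Cd79b, was higher by 0.68 ± 0.22 (adjusted p = 0.0309).

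The promoters of Ptprc and Laptm5 are shown as examples of 2 members that were both higher. They were taken from the promoters that hold the sequence GAGGAA, so its presence in them is by choice. Spi1, known as PU.1, binds purine-rich sequences with the core GAGGAA, which is in capitals here (as TTCCTC where it lies on the opposite strand). Each covers 300 bases around the start of the gene (RefSeq, GRCm38.p6), Ptprc at chr1:138175256-138175555 on the minus strand and Laptm5 at chr4:130913066-130913365 on the plus strand.
Ptprc: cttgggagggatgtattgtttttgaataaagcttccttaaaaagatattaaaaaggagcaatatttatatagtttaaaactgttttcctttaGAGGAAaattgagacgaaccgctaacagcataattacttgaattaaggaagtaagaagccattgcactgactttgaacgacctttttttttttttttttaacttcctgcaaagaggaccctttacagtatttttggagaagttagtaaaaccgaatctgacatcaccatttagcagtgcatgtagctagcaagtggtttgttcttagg
Laptm5: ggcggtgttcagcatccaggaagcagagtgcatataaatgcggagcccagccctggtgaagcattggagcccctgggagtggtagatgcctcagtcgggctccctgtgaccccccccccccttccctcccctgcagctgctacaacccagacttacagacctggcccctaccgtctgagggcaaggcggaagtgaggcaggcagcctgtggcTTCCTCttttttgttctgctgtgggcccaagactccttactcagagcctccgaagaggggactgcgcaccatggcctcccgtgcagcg
On either strand, GAGGAA was found in 14 of 30 promoters of 26 member genes in the table (46.67%), against 28.28% of all 32851 promoters there. The longer GAGGAAGT was in 1 of the 30 (3.33%) and in 3.20% of all. Of the 10 genes that were higher and have a promoter in the table, 4 held GAGGAA, against 13 of all 26 member genes there. A match describes these letters in this window and is not a binding site.

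**Figure D1:**
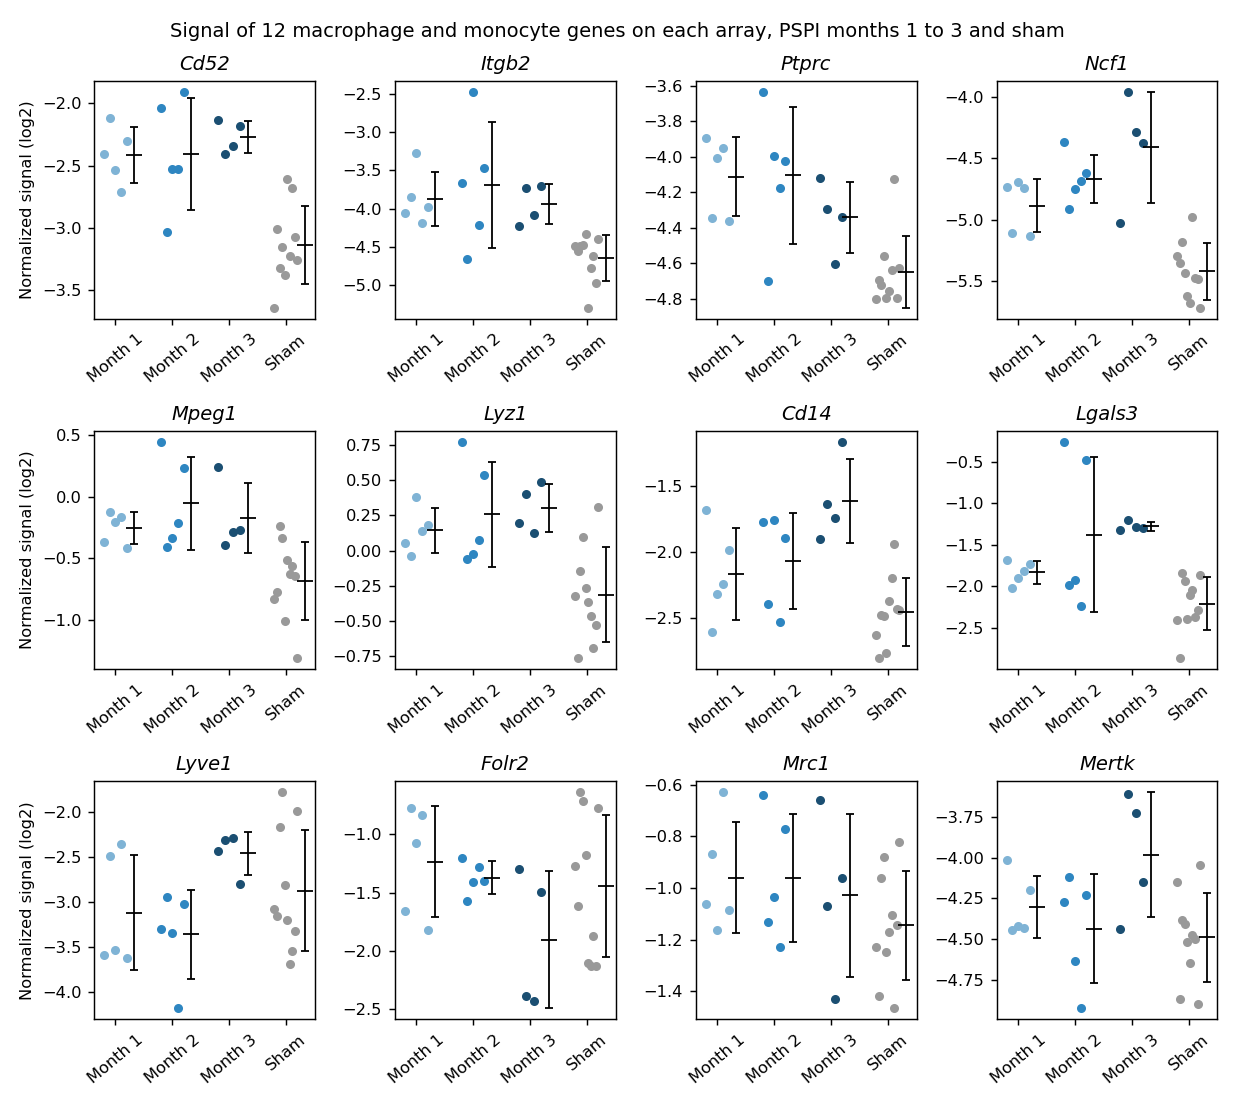
Normalized log2 signal (vertical axes, on separate scales) of 12 genes on each array; points are arrays, and the bar beside each group is its mean ± SD. Cd52, Itgb2 and Ncf1 have 12, 13 and 11 of 14 PSPI arrays above every sham. Of the resident markers, Lyve1 and Folr2 have 0, while Mrc1 and Mertk have some. Ncf1 was kept only through PSPI groups, and the share of all genes above every sham is not given.

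Ncf1, the p47 organizer subunit of the phagocyte NADPH oxidase, was kept through the PSPI groups, and 2 of 10 shams were not well above background. Its levels were -4.74, -5.11, -4.70, -4.75 and -5.13 in month 1, -4.37, -4.91, -4.75, -4.69 and -4.62 in month 2 and -5.03, -3.96, -4.28 and -4.38 in month 3, against -5.72, -5.46 and -4.98 as lowest, median and highest in sham. Only month 1 samples 2 and 5 and month 3 sample 1 fell within the sham range. The measured log2 difference was 0.77 ± 0.11 (adjusted p = 9.4e-05), with the limit that the filter on dim probes favoured this direction.

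Other genes of the complex were read beside it. Rac2, its small GTPase, was higher by 0.53 ± 0.09 (adjusted p = 0.000288), and the cytosolic subunit Ncf4 was higher by 0.40 ± 0.12 (adjusted p = 0.0157). Cyba, the membrane subunit that many cell types express, had 0.09 ± 0.06 (adjusted p = 0.275). Its partner Cybb was too dim to test: it lay between -6.45 and -5.17 on the PSPI arrays, against -7.72 to -6.12 in sham, and was well above background on 7 and 3 of them.

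Among 9 tested genes of the lineage as a whole, 4 were higher over all months and 0 lower. Mpeg1, the macrophage pore-forming protein perforin-2, had levels of -0.37, -0.12, -0.20, -0.16 and -0.42 in month 1, 0.45, -0.41, -0.33, -0.21 and 0.24 in month 2 and 0.24, -0.39, -0.28 and -0.27 in month 3, against -1.31, -0.64 and -0.24 as lowest, median and highest in sham. The groups overlapped, with 7 of 14 PSPI arrays above every sham. The change was 1.44-fold (log2 0.52 ± 0.12, adjusted p = 0.00394). The lysozyme genes Lyz1 and Lyz2, which encode the antibacterial enzyme of phagocytes, changed by 0.55 ± 0.12 (adjusted p = 0.00286) and 0.56 ± 0.18 (adjusted p = 0.0288). They are near-identical neighbours on chromosome 10, so their probes may read each other's transcript.

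Marco, a scavenger receptor for bacteria, had a dim probe, kept only because all 4 month 3 arrays passed the background flag. It was at -2.96 in month 1 sample 3 and at -6.83 to -4.52 on the other 13 PSPI arrays, against -8.48 to -5.81 in sham. Most shams gave only a background reading, so no fold is given. The fit called it over all months and in month 3, and with slide as a fixed block the adjusted p for all months was 0.307.

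The defining lineage genes Csf1r, Adgre1 and Aif1 did not pass by their brightest kept probes, and Cd68 was too dim to test. The dimmest kept Csf1r probe, kept only through PSPI groups, passed by itself (0.69 ± 0.24, adjusted p over probes 0.0413). Csf1r, the receptor through which macrophages receive their survival signal, averaged 1.50 ± 0.14, 1.24 ± 0.18 and 1.51 ± 0.12 in months 1 to 3, against 1.49 ± 0.28 in sham (SD; log2 change -0.07 ± 0.09, adjusted p = 0.59). Adgre1, an adhesion receptor widely used as a marker of mouse macrophages, averaged -2.52 ± 0.14, -2.60 ± 0.30 and -2.61 ± 0.57, against -2.92 ± 0.41 (0.34 ± 0.15, adjusted p = 0.105). Its second kept probe gave 0.36 ± 0.13 and passed by itself (adjusted p over probes 0.0452; 12.6% of kept probes were higher). Aif1, the actin-binding protein Iba1, differed by 0.09 ± 0.11. Ms4a7, a membrane protein of macrophages, had 0.46 ± 0.21 over all months (adjusted p = 0.106).

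Cx3cr1, the fractalkine receptor, split the PSPI arrays. Levels were -1.54, -1.31, -1.87, -1.95 and -1.33 in month 1, -2.29, -3.42, -1.61, -1.35 and -2.11 in month 2 and -0.999, -3.55, -3.52 and -1.29 in month 3, against -1.85, -1.55 and -0.83 as lowest, median and highest in sham. On 7 of 14 PSPI arrays it was below every sham, and month 2 sample 2 and month 3 samples 2 and 3 were lowest. The change of -0.56 ± 0.27 did not pass (adjusted p = 0.137). The second probe showed the same arrays low: -4.91 in month 2 sample 2 and -4.65 and -4.50 in month 3 samples 2 and 3, against a lowest sham of -3.30. The last pair are arrays that lay close together. Its ligand gene Cx3cl1 was higher by 0.70 ± 0.14 (adjusted p = 0.0019).

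Of 3 tested Fc receptor and adaptor genes, 1 passed over all months. Fcer1g, the shared gamma chain, was higher by 0.30 ± 0.09 (adjusted p = 0.0224), with 5 of 14 arrays above every sham. Tyrobp, the adaptor DAP12, differed by 0.24 ± 0.09 and stopped at the threshold (adjusted p = 0.05). The low-affinity receptor Fcgr3 averaged -3.09 ± 0.17, -3.10 ± 0.37 and -3.33 ± 0.13 in months 1 to 3, against -3.49 ± 0.40 in sham (0.31 ± 0.13, adjusted p = 0.084). Trem2, a lipid receptor that signals through Tyrobp and marks lesion-associated macrophages, had 0.23 ± 0.15 (adjusted p = 0.258). On 3 of 14 PSPI arrays Trem2 was above every sham.

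**Figure D2:**
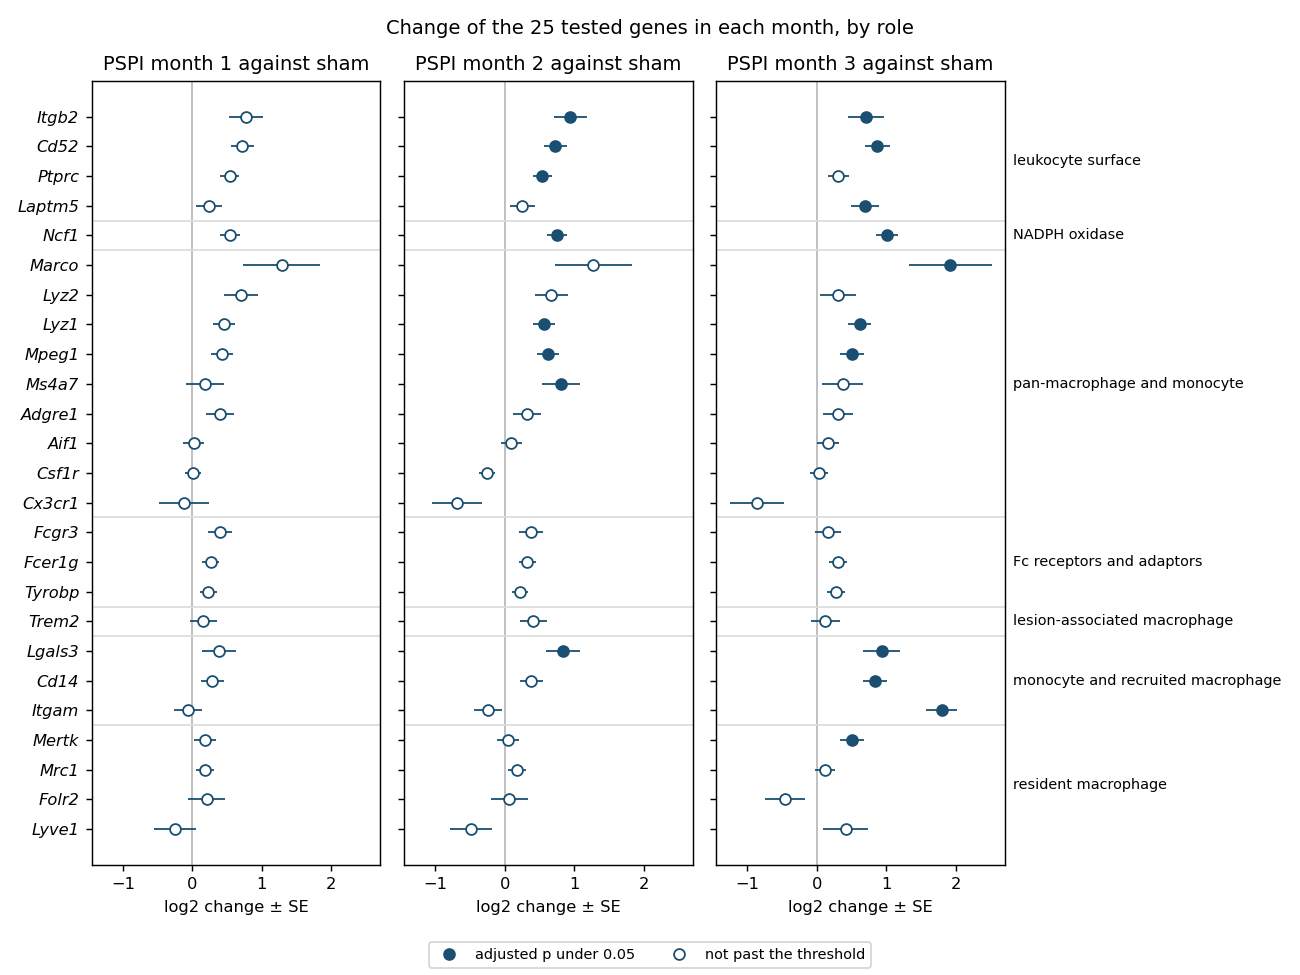
Log2 change against sham ± SE (horizontal axis) of the 25 tested genes in months 1, 2 and 3, grouped by role; filled points passed an adjusted p of 0.05. Filled points number 0, 8 and 11, and among resident markers only Mertk in month 3 is filled.

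All 3 tested recruited markers were higher over all months, but Itgam only by a probe with CA repeats, described below. Lgals3, which encodes galectin-3, a lectin of activated macrophages, had levels of -1.68, -2.02, -1.90, -1.81 and -1.73 in month 1, -0.26, -1.98, -1.92, -2.24 and -0.48 in month 2 and -1.32, -1.20, -1.28 and -1.30 in month 3, against -2.87, -2.19 and -1.84 as lowest, median and highest in sham. All 4 month 3 arrays were above every sham and close to each other. In month 2 samples 1 and 5, arrays that lay close together, were high, and the other 3 were within the sham range. The change over all months was 1.64-fold (log2 0.72 ± 0.19, adjusted p = 0.00852), and that of month 3 was 1.91-fold (0.94 ± 0.26, adjusted p = 0.00835).

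Cd14, the co-receptor for bacterial lipopolysaccharide on monocytes, had levels of -1.68, -2.61, -2.32, -2.24 and -1.98 in month 1, -1.77, -2.39, -1.75, -2.53 and -1.89 in month 2 and -1.90, -1.64, -1.75 and -1.17 in month 3, against -2.80, -2.46 and -1.94 as lowest, median and highest in sham. Month 3 did not overlap with sham, while months 1 and 2 did. The change was 1.42-fold over all months (log2 0.50 ± 0.12, adjusted p = 0.00634) and 1.79-fold in month 3 (0.84 ± 0.18, adjusted p = 0.000906).

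Itgam, the alpha chain CD11b of the monocyte integrin, was called in month 3 by 1 of its 2 kept probes. The representing probe is the brightest, at chr7:135261755-135261814 (mm9, plus strand), and starts with a run of 20 bases of CA repeats, in capitals below. The other kept probe lies at chr7:135212140-135212199 and another, not kept, at chr7:135260275-135260334. Whether they lie in exons or UTRs was not assigned. The first 30 of the 60 bases of each are shown because the run sets the first apart.
Itgam brightest probe: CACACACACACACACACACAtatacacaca
Itgam second kept probe: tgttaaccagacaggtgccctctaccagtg
Itgam probe not kept: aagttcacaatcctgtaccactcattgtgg
The brightest probe stood at 2.40, 3.67, 3.94 and 3.55 in month 3, against 1.33, 1.55 and 2.07 as lowest, median and highest in sham (log2 change 1.79 ± 0.22, adjusted p = 2.87e-06). In months 1 and 2 its changes were -0.06 ± 0.20 and -0.24 ± 0.20. On the whole array 33 kept probes contain an unbroken run of 8 CA repeats, that of Itgam included, and 33 of 33 were higher in month 3, by 1.15 to 3.38 with a median of 1.95. Over all months 29 of 33 were higher, with a median of 0.63, and in months 1 and 2, 0 of 33 passed. Over all kept probes 12.6% were higher over all months, 0% in month 1, 6.22% in month 2 and 21.7% in month 3.

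The second kept Itgam probe had 0.83 ± 0.39 over all months (adjusted p over probes 0.128) and 1.02 ± 0.56 in month 3 (adjusted p over probes 0.148). This dim probe was well above background on 3 of 5, 5 of 5 and 2 of 4 arrays in months 1 to 3, and on 4 of 10 shams. It was thus kept only through month 2, and most of its sham readings are background, which limits these estimates. It was at -2.22 in month 2 sample 1, -4.92 to -6.60 on the other 4 month 2 arrays and -4.34 to -6.33 in month 3, against -7.26 to -5.78 in sham. With probes that hold such repeats left out, Itgam passed in none of the 3 comparisons it had passed. Cd14 and Lgals3 are therefore the 2 recruited markers carried into the contrast below.

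**Figure D3:**
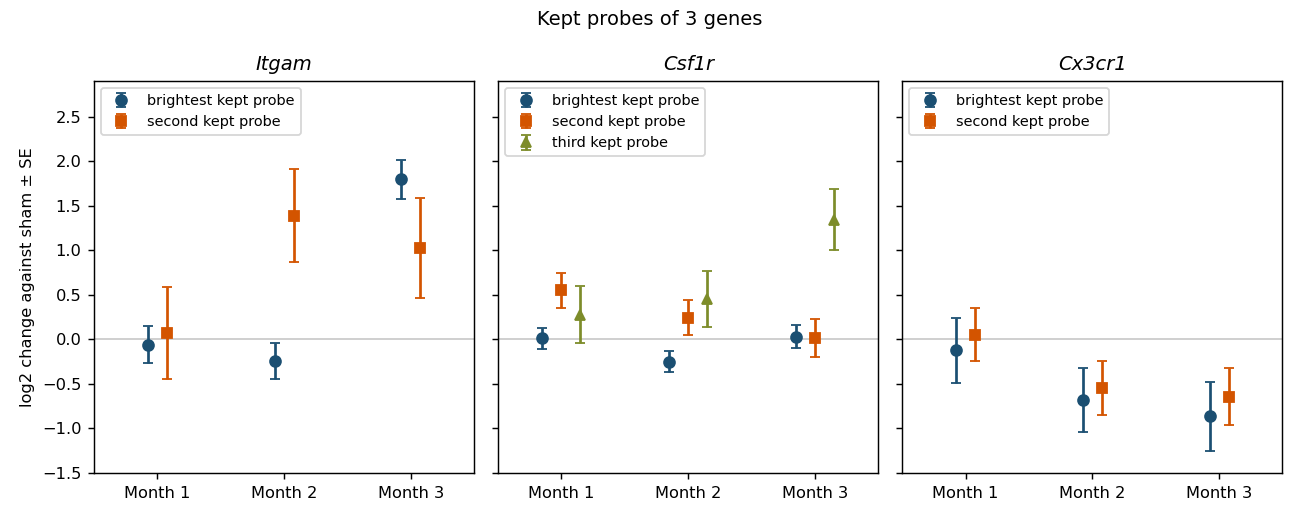
Log2 change against sham ± SE (vertical axis) of each kept probe of Itgam, Csf1r and Cx3cr1 in months 1 to 3. The brightest Itgam probe stands at 1.79 in month 3, Csf1r probes run from 0.01 to 1.34 there, and both Cx3cr1 probes lie below 0 in months 2 and 3.

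Csf1r probes differed as well. The dimmest of 3 kept probes averaged -4.73 ± 0.18, -4.56 ± 1.10 and -3.67 ± 0.53 in months 1 to 3, against -5.01 ± 0.44 in sham, and passed over probes for all months (0.69 ± 0.24, adjusted p over probes 0.0413) and in month 3 (1.34 ± 0.34, adjusted p over probes 0.00399). The brightest probe had -0.07 ± 0.09 and 0.03 ± 0.13 in the same comparisons, and the middle one 0.27 ± 0.15 and 0.01 ± 0.21. The dimmest probe was well above background on 14 of 14 PSPI arrays and 9 of 10 shams. It was thus kept only through PSPI groups, where it read higher, so its calls are not independent of the filter. No direction is given for Csf1r.

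Resident markers did not pass over all months. Lyve1, a hyaluronan receptor of resident macrophages and lymphatic vessels, had levels of -3.59, -2.48, -3.53, -2.36 and -3.61 in month 1, -3.30, -2.94, -3.35, -4.18 and -3.02 in month 2 and -2.43, -2.31, -2.29 and -2.80 in month 3, against -3.69, -3.12 and -1.78 as lowest, median and highest in sham. Only month 2 sample 4 left the sham range, on the low side, and the change was -0.11 ± 0.23 (adjusted p = 0.764). In the lymphatic list 0 of 2 tested genes passed; Prox1, its transcription factor, had -0.02 ± 0.09.

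Folr2, the folate receptor beta, was at -1.66, -0.78, -1.07, -0.83 and -1.82 in month 1, -1.21, -1.57, -1.40, -1.28 and -1.40 in month 2 and -1.30, -2.39, -2.43 and -1.49 in month 3, against -2.13, -1.44 and -0.64 as lowest, median and highest in sham. Month 3 samples 2 and 3, which lay close together and were also low for Cx3cr1, were below every sham. The change over all months was -0.06 ± 0.20 (adjusted p = 0.849).

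Mrc1, the mannose receptor CD206, averaged -0.96 ± 0.21, -0.96 ± 0.25 and -1.03 ± 0.32 in months 1 to 3, against -1.14 ± 0.21 in sham (0.16 ± 0.10, adjusted p = 0.232). Mertk, the kinase with which macrophages recognise dying cells, stood at -4.44, -3.61, -3.73 and -4.15 in month 3, against -4.90, -4.49 and -4.04 as lowest, median and highest in sham. Of the 4 arrays 2 were above every sham, and these were the close pair, samples 2 and 3. Mertk passed in month 3 (0.51 ± 0.17, adjusted p = 0.0208; 0.0892 with close arrays averaged) and not over all months (0.25 ± 0.12, adjusted p = 0.126).

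The contrast between markers of the 2 kinds was described for each array. It was the mean of Cd14 and Lgals3 minus the mean of Lyve1, Folr2, Mrc1 and Mertk, each gene centred on its mean over 24 arrays. The contrast compares RNA levels in whole tissue, where other cell types may add to each gene, and does not count macrophages of either kind. It ran from -0.64 to 0.43 in month 1 (median -0.03), -0.21 to 0.87 in month 2 (median 0.30) and 0.13 to 0.65 in month 3 (median 0.47), against -0.73 to 0.26 in sham (median -0.55). The groups overlapped. The recruited mean was 0.37 to 0.75 in month 3, against -0.85 to -0.13 in sham. The resident mean of month 3, -0.01 to 0.25, lay inside the sham range of -0.42 to 0.55. The top of that range came from the linked arrays Sham 3, 4 and 10, at 0.42, 0.51 and 0.55. Other shams reached at most 0.02, and month 3 samples 1, 2 and 4 were above that, at 0.25, 0.11 and 0.10. The resident mean also joins unlike month 3 changes: -0.46 ± 0.29 for Folr2, 0.41 ± 0.33 for Lyve1, 0.12 ± 0.14 for Mrc1 and 0.51 ± 0.17 for Mertk.

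**Figure D4:**
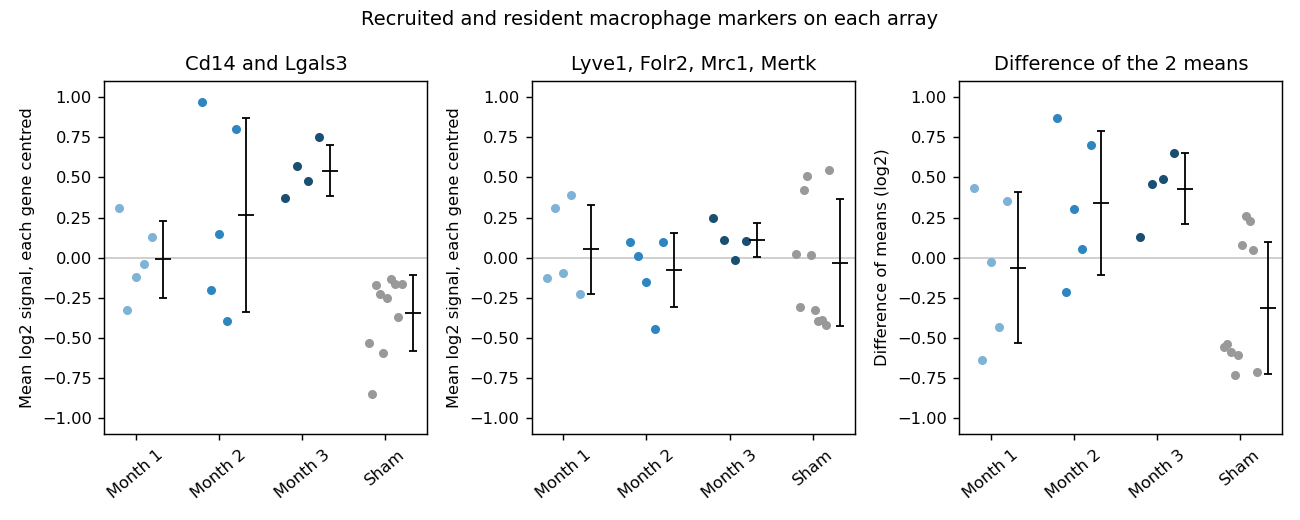
Mean centred log2 level of Cd14 and Lgals3 (left), of Lyve1, Folr2, Mrc1 and Mertk (middle) and their difference (right) on each array, with mean ± SD beside each group. Month 3 differences run from 0.13 to 0.65; the shams fall into 4 from 0.05 to 0.26 and 6 from -0.73 to -0.54.

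The difference followed the Myh7 level on nearly every array, whatever its label. It was above 0 on 10 of 11 PSPI arrays with the higher Myh7 level and on 4 of 4 such shams, and on 0 of 3 PSPI arrays and 0 of 6 shams with the lower level. The exception was month 2 sample 2, at -0.21. At the higher level PSPI arrays ran from -0.21 to 0.87 (median 0.43), and shams from 0.05 to 0.26 (median 0.15). At the lower level PSPI arrays ran from -0.64 to -0.03, and shams from -0.73 to -0.54. Arrays were sorted here by a measured value, no test is given, and Myh7's part in the contrast was not tested.

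Within sham, the resident markers Folr2 and Lyve1 differed between these arrays, while Mrc1 and Mertk overlapped. Folr2 lay at -2.13 to -1.87 on the 4 shams with the higher Myh7 level, against -1.61 to -0.64 on the other 6. Lyve1 lay at -3.69 to -3.20, against -3.15 to -1.78. Mrc1 lay at -1.47 to -1.11, against -1.42 to -0.82, and Mertk at -4.90 to -4.48, against -4.87 to -4.04. The dim Timd4 probe read -8.34 to -7.10 and was well above background on 0 of 4, against -6.22 to -5.01 and 4 of 6. The dim Ccr2 probe ran the other way, at -6.15 to -5.21, against -7.50 to -6.36. It was well above background on 3 of 4, against 1 of 6, so most readings at the lower Myh7 level are background. Of the tested recruited markers, Cd14 lay at -2.43 to -1.94, against -2.80 to -2.44. Lgals3 overlapped, at -2.36 to -2.04, against -2.87 to -1.84. On PSPI arrays with the higher Myh7 level, the medians of Folr2, Lyve1, Mrc1 and Mertk were -1.49, -3.02, -1.06 and -4.20. Shams of that level had medians of -2.11, -3.43, -1.16 and -4.575, all lower. The ranges of each gene overlapped, and this difference was not tested. Sham 3, 4 and 10, the arrays with high Myl7, had the 3 highest levels of both Lyve1 and Folr2. They are linked by close pairs, and close shams are counted singly here too.

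Month by month, 0 of 25 genes passed in month 1, when 0 of all genes passed by limma (a background of 0%). At an unadjusted p under 0.05, 10 of the 25 passed, all higher, against 12.1% of all genes. The smallest adjusted p was that of Cd52, 0.108. The estimates for Itgb2, Cd52, Ptprc and Ncf1 were 0.77 ± 0.24, 0.72 ± 0.17, 0.54 ± 0.14 and 0.54 ± 0.14.

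In month 2, 8 genes were higher and 0 lower (6.42% of all genes were higher, 8.05% lower and 14.5% either): Itgb2 (0.95 ± 0.24), Lgals3, Ms4a7 (0.81 ± 0.27), Ncf1 (0.75 ± 0.14), Cd52, Mpeg1 (0.63 ± 0.16), Lyz1 and Ptprc. The close pair, samples 1 and 5, carried much of this. Sample 1 had 18 and sample 5 had 17 of the 25 genes above every sham, while samples 2, 3 and 4 had 2, 5 and 6. The share of all genes above every sham on these arrays is not given. With close arrays averaged 0 of 25 genes passed, without sample 1 3 did, and without sample 5 5 did.

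In month 3, 11 genes were higher and 0 lower (17.2% of all genes were higher, 21.7% lower and 38.9% either): Marco, Itgam, Ncf1 (1.01 ± 0.16), Lgals3, Cd52 (0.87 ± 0.18), Cd14, Itgb2 (0.71 ± 0.26), Laptm5 (0.69 ± 0.20), Lyz1, Mpeg1 and Mertk. With only probes well above background on all arrays 9 of 23 passed, and with close arrays averaged 8 of 25. Within slide 3 alone, 3 month 3 arrays against 3 shams, 7 passed: Itgam (by its probe with CA repeats), Ncf1, Cd52, Lgals3, Cd14, Marco and Laptm5. These month 3 arrays include the close pair, samples 2 and 3. The share of all genes passing under these alternatives is not given. On single month 3 arrays 10 to 15 of the 25 genes were above every sham, against 4 to 10 in month 1. The share of all genes above every sham is again not given, so these counts are not read as particular to these genes.

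Month 3 against month 1 gave 3 genes higher and 0 lower (11.9% of all genes were higher, 16.7% lower and 28.5% either): Itgam by its brightest probe (1.85 ± 0.25), Cd14 (0.55 ± 0.20, adjusted p = 0.043) and Ncf1 (0.47 ± 0.17, adjusted p = 0.0465). With close arrays averaged the adjusted p was 0.103 for Cd14 and 0.14 for Ncf1. The median change of the 25 genes between these months was 0.08.

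Further genes of the pathway were taken from lists. Of the macrophage growth factors and monocyte chemokines, 4 of 8 were higher over all months and 1 lower. Ccl8, a chemokine that attracts monocytes, was higher by 1.89 ± 0.20 (adjusted p = 7.69e-06), at -1.97 to -0.75, -0.60 to 0.16 and -1.01 to -0.72 in months 1 to 3, against -3.92 to -1.92 in sham. The chemokine gene Cxcl12 was higher by 0.39 ± 0.12. Both ligands of Csf1r were measured and went opposite ways: Il34 was higher by 0.29 ± 0.09 (adjusted p = 0.0215) and Csf1 lower, with -0.45 ± 0.12 (adjusted p = 0.0119). In month 3 these were 0.70 ± 0.13 and -0.90 ± 0.18. The monocyte chemokine gene Ccl7 did not pass over all months (-0.13 ± 0.20) and was lower in month 3 than in sham (-0.94 ± 0.29, adjusted p = 0.0136) and than in month 1 (-1.03 ± 0.33, adjusted p = 0.0212). Ccl2, the main ligand of Ccr2, had 0.12 ± 0.19.

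Of 9 other monocyte genes tested, 5 were higher: Plac8 (1.41 ± 0.27, adjusted p = 0.00115), Ms4a6c (0.68 ± 0.15), Vcan (0.67 ± 0.22), S100a4 (0.55 ± 0.15) and Ly6c1 (0.51 ± 0.08). Fibroblasts and endothelium are known to express Vcan, S100a4 and Ly6c1 too. The fibroblast list had 2 of 6 genes higher (Dcn and Postn) and the endothelial list 1 of 4 (Kdr).

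Of 12 other resident macrophage genes, 3 were higher, the complement subunits C1qa (0.54 ± 0.11, adjusted p = 0.00235), C1qc (0.42 ± 0.09) and C1qb (0.39 ± 0.10), which recruited macrophages also make. The scavenger receptor gene Stab1 was higher in month 3 (0.55 ± 0.15, adjusted p = 0.00506). Cbr2, Vsig4 and Maf were among the 9 that did not pass. Of 7 other lesion-associated genes, the cathepsins Ctsd (0.40 ± 0.09) and Ctsb (0.24 ± 0.07) were higher. None of the 5 dendritic cell genes was among those tested.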

How the data were processed

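RNA of 24 right ventricles was labelled with Cy3 and read with Agilent Feature Extraction 10.7.3.1, per the labels' protocols and the submitters' processing notes. Each deposited scanner file gives spot intensity after the software's background subtraction, with mm9 coordinates per the file headers. The authors' deposited table also holds intensity values and equalled the unscaled net signal on 24 of 24 arrays. Here, log2 processed signals were reduced by the 75th percentile, within an array, of the 16946 probes that passed the background flag on 24 of 24 arrays. Probes passing it made up 36.1% to 56.1% of an array, and the number of arrays limits the precision. Where a gene had several kept probes, the brightest on average stood for it. Genes were tested with limma 3.58.1 (R 4.3.3) in 1 model of 4 group means, two-sided, with Benjamini-Hochberg adjustment over 12425 genes and a threshold of 0.05. Every ± after a log2 change is a standard error. Alternatives were other scalings, backgrounds, filters and probe rules, slide blocks, a replicate block, close arrays averaged, and each array left out; the distance limit for close arrays, leaving out repeat probes, averaging probes and a Myl7 covariate were chosen after seeing the data. Members and lists were chosen with earlier results of these data known. Named genes were the resident, recruited and lesion-associated markers, Csf1r, Cd68, Adgre1 and Ptprc, up to 8 members past the threshold in each direction per comparison, and up to 4 genes with the smallest p of each other list; further genes named were chosen after their values were seen. Some genes of the other lists are not reported here.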

Additional observations from a re-analysis of the deposited data

Results flagged for a closer look

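Among 100 sets of values (25 genes in 4 groups), 4 had an array far from the rest by Dixon's ratio, where chance flags about 1 in 20. These were Marco in month 1 sample 3 (-2.96, the next highest being -6.03), Itgam's brightest probe in month 2 sample 4 (2.15, next 1.30), Ptprc in Sham 8 (-4.13, next -4.56) and Fcgr3 in month 3 sample 4 (-3.53, the next lowest being -3.30). The change differed between months by the test of month 3 against month 1 for Itgam (1.85, by its probe with CA repeats), Cd14 (0.55) and Ncf1 (0.47).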

How the results depend on the processing

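Of 35 calls of single genes, 0 reversed under any alternative run; 15 kept their call with close arrays averaged, 20 with slide as a fixed block, 25 with a replicate block, 8 within slide 3 (4 residual degrees of freedom), and 26 or more under each other setting that keeps all 24 arrays. Genes passing over all months numbered 13, but 7 with slide as a fixed block, 6 with close arrays averaged and 0 within slide 3, where 12 of 25 had an unadjusted p under 0.05. For month 2 the count of 8 became 5 without a filter on dim probes, 5 with slide as a fixed block, 0 with close arrays averaged and 0 within slide 3. For month 3 the count of 11 became 7 within slide 3, where the month 3 arrays include the close pair. No share of all genes is given beside these alternative counts. For month 3 against month 1 the count of 3 became 1 with the percentile over all probes, without a filter, with slide as a fixed block, within slide 3 and with close arrays averaged. The cause of these changes was not tested beyond the fewer samples that averaging and slide 3 leave. Leaving out single arrays gave 11 to 15 genes over all months, 0 to 2 in month 1 (2 without Sham 8), 3 to 9 in month 2, 9 to 12 in month 3 and 1 to 5 for month 3 against month 1 (5 without month 3 sample 1, and 1 without month 1 sample 2 or 4 or month 3 sample 2, 3 or 4). Replicate numbers did not pair the samples: over 27 pairs with the same number the correlation of deviations ran from -0.45 to 0.52 (median 0.00), and the replicate block gave 10 genes over all months, 10 in month 2, 8 in month 3 and 2 for month 3 against month 1. Dim probes (Timd4, Ccr2, Cybb, Gpnmb, Cd68) limit what can be said of these genes.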
